A study of Mus musculus with 8 samples.

Results

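The genes described here were 10 eicosanoid receptors measured in mouse lung neutrophils, of 19836 distinct gene symbols on 24625 rows of the array table. They were Gpr31b, the prostaglandin E2 receptors Ptger1, Ptger2, Ptger3 and Ptger4, the prostacyclin receptor Ptgir, the thromboxane receptor Tbxa2r, the cysteinyl leukotriene receptor Cysltr1 and the leukotriene B4 receptors Ltb4r1 and Ltb4r2. They were taken by symbol and each had 1 row. The family was chosen by its SP minus PBS differences on these arrays, led by that of Gpr31b, so the differences are a description and carry no p-value. The samples came from wild type mice of 6 to 12 weeks of age with an intratracheal instillation into the left lung, 2.3 µl for each g of the mouse, of either Streptococcus pneumoniae (SP), a cause of pneumonia, or phosphate-buffered saline (PBS). Lungs were taken after 24 h and neutrophils were captured from the digested tissue by an antibody to the neutrophil protein Ly6G and magnetic beads. There were 4 PBS and 4 SP samples, each on 1 Affymetrix array, and the labels give no genetic change and no other treatment in either group. Per the study's methods the purity of the cells was examined in pneumonia samples, and the PBS cells were not described in that way.

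Eicosanoids are short-lived lipids made from arachidonic acid. Cyclooxygenases start the branch that gives prostaglandins, prostacyclin and thromboxane, and lipoxygenases start the branch that gives leukotrienes and hydroxy fatty acids such as 12-HETE, the ligand described for GPR31. All of these act through G protein-coupled receptors on the cell surface. The receptors for prostaglandin E2 encoded by Ptger2 and Ptger4, and the prostacyclin receptor, raise cyclic AMP, which in neutrophils is known to restrain the oxidative burst and release of mediators. The receptor encoded by Ptger3 mostly lowers cyclic AMP, those encoded by Ptger1 and Tbxa2r raise calcium, and the high-affinity leukotriene B4 receptor encoded by Ltb4r1 is a classical chemoattractant receptor of neutrophils.

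Values are log2 intensities after robust multi-array averaging, so that 1 unit is a 2-fold difference, and differences are SP minus PBS. A row was called where the adjusted p of limma over all rows was at most 0.05. Array medians lay between 6.06 and 6.20 in PBS and between 5.78 and 5.91 in SP. Correlations across rows were 0.979 to 0.997 among PBS arrays and 0.970 to 0.995 among SP arrays. Y-linked genes (Ddx3y, Kdm5d and Uty) read 4.33 to 4.90 on all arrays and served as a background level, above which a receptor was counted only where it exceeded the highest of them on the same array by more than 1 unit. These genes were themselves slightly higher in SP, by 0.12, 0.19 and 0.18 units, and Kdm5d was called. The neutrophil markers averaged 12.08 to 12.82 on every array, with Lcn2 and S100a8 among them, and 2 of 9 were called, both lower in SP. Markers of other cells were also present and moved with the groups. All 7 measured epithelial markers and 6 of 7 endothelial markers were called lower in SP, with list means of 11.89 to 12.24 and 10.15 to 11.21 in PBS against 10.19 to 10.97 and 8.46 to 9.71 in SP. All 5 B cell markers were called lower, with list means of 8.10 to 9.07 in PBS and 6.03 to 7.37 in SP, and of 5 alveolar macrophage markers 3 were called lower and 1 higher. Of 6 monocyte and macrophage markers 3 were called higher, with list means of 8.31 to 9.10 in PBS and 8.63 to 9.93 in SP. Bulk values cannot tell fewer cells of a type from less RNA per cell.

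Gpr31b, Ptger2, Ptger4 and Ptgir were higher in SP, at least 2-fold each, and their groups did not overlap. Ptger1 and Tbxa2r were lower, both by less than 2-fold, and their groups did not overlap either. Ptger3, Cysltr1, Ltb4r1 and Ltb4r2 were not called. In all, 6 of the 10 were called, while 44.1% of all rows were called, 21.5% higher and 22.6% lower in SP. At 2-fold, 4 of the 10 were called, all higher, against 17.6% of all rows in either direction and 6.37% of all rows in the higher direction. The 6 receptors with separate groups stand beside 49.0% of all rows. The choice of the receptors used this comparison, so nothing is read from these shares. The median difference of the 10 was 0.13, and that of all rows was 0.10. Above background on all 4 arrays of a group were 7 receptors in PBS and 6 in SP. Ptger1 stood up to 1.23 units above the highest Y-linked row in PBS, and passed the margin on PBS sample 4 but on no other array.

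**Figure D1:**
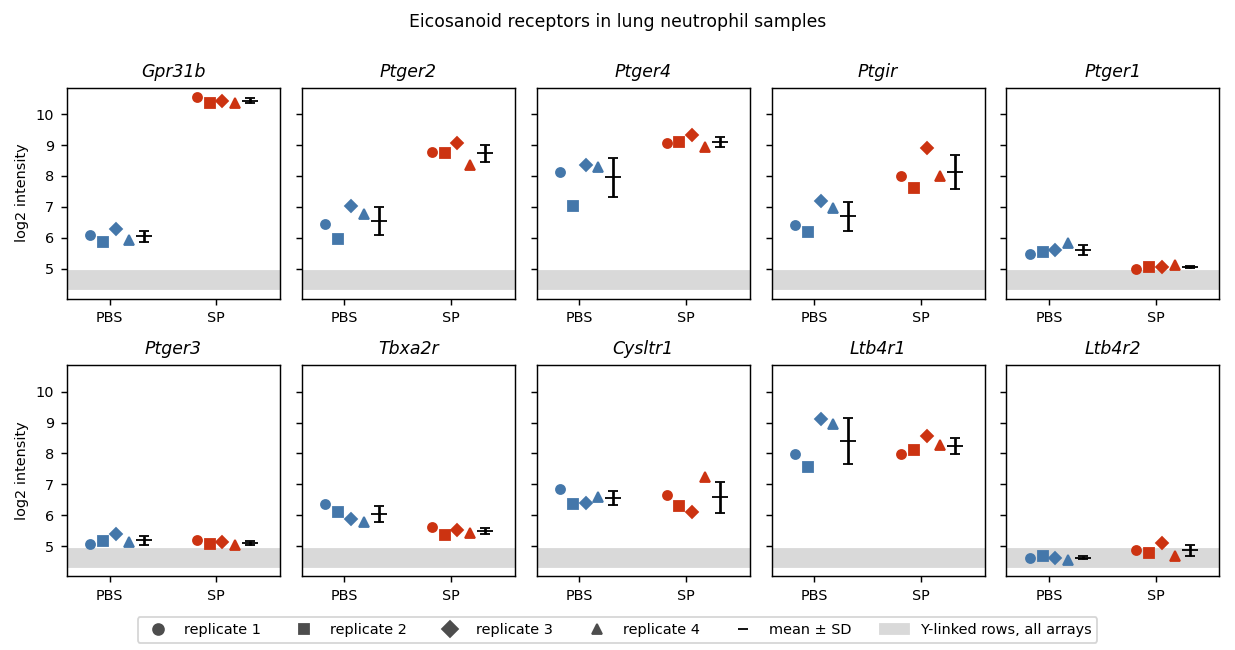
Log2 intensity of the 10 receptors in each sample (one panel per receptor, PBS blue, SP red, marker shape by replicate number), with black bars for mean ± SD (n = 4) and a grey band for the Y-linked rows (4.33 to 4.90). Gpr31b moves from near 6 in PBS to above 10 in SP, whereas Ltb4r2 lies in or near the band in both groups.

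Gpr31b (NM_001013832) encodes the mouse counterpart of the 12-HETE receptor GPR31. It read 6.07, 5.87, 6.29 and 5.93 in PBS samples 1 to 4. It read 10.55, 10.38, 10.43 and 10.37 in SP samples 1 to 4. Every SP sample was at least 4.08 units above every PBS sample, and the samples within a group were close together. Means were 6.04 ± 0.19 (SD, n = 4) in PBS and 10.43 ± 0.08 in SP. The difference was 4.39 (SE 0.11), or 21.0-fold, and its rise ranked 45 among the 24625 rows. In PBS the receptor was already 1.32 to 1.57 units above the highest Y-linked row, so it was low but above background without the bacteria. Over 17 other settings of the analysis the difference lay between 4.34 and 4.67 and the call was kept in each. The mouse genome also holds Gpr31c, a closely named gene without a matched row, and whether its RNA binds the same probes was not tested.

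The region before the annotated start of Gpr31b is shown because this receptor carried the widest gap between the groups. Its RefSeq model (GRCm38.p6) begins at the start codon, so the window lies before the coding start and need not be the promoter. The stretches below are read on the minus strand, at chr17:13052491-13052520 and at chr17:13052337-13052366. Capitals mark the letters that matched a motif for NF-κB (GGG, any 2 bases, TT, any base, CC) at position -230 and one for PU.1 (GAGGAA) at position -74, counted from the annotated start to the first base of the match.
Gpr31b NF-κB match: caaaacttggGGGCCTTCCCctgtgtccat
Gpr31b PU.1 match: ccttttttctcaGAGGAAgtagcacagtga
NF-κB is a transcription factor of inflammatory signalling and PU.1 a factor of myeloid cells. Of 32851 windows of 300 bases in the RefSeq table, 4.79% held the NF-κB letters and 28.3% the PU.1 letters on either strand. No match was found in this window for the interferon element (GAAA, any 2 bases, GAAA), which 3.44% of windows held, or for the STAT element TTCNNNGAA, which 8.3% held.

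Among genes above the median level, those whose values ran most like Gpr31b over the 8 arrays were Ifit2 (Pearson r = 0.9995), Nsf (0.999), Slfn5 (0.9989), Ifi35 (0.998) and Mir146 (0.998). Ifit2, Slfn5 and Ifi35 are interferon-stimulated genes, Nsf is a factor of vesicle fusion, and Mir146 is a microRNA gene of inflammatory signalling. They were higher in SP by 5.61, 1.35, 2.64, 2.51 and 4.62 units. Of the 10886 symbols compared, 123 had r above 0.99, and the difference between the groups makes up most of such an r. With the group means subtracted, 0 of the symbols had r above 0.99. The nearest of the 10886 were then Ifit2 (r = 0.949), the translation termination factor Etf1 (0.949), the gamma-glutamyl hydrolase Ggh (0.924), Pin4 (0.906) and Hbs1l (0.902). The points are arrays that share a normalization, so these coefficients describe likeness only.

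Ptger2, Ptger4 and Ptgir, whose receptors raise cyclic AMP, were all higher in SP. So were 3 of 6 monocyte and macrophage markers, as given above, and their part in the higher values of these receptors and of Gpr31b was not tested. Ptger2 (NM_008964) read 6.44, 5.97, 7.02 and 6.77 in PBS and 8.77, 8.74, 9.06 and 8.36 in SP. The lowest SP sample exceeded the highest PBS sample by 1.35 units. The means were 6.55 ± 0.45 (SD, n = 4) and 8.73 ± 0.28, and the difference was 2.18 (SE 0.24), or 4.54-fold. It stayed between 1.99 and 2.46 in the 17 other settings and was called in each.

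Ptger4 (NM_001136079) was well above background in both groups. It read 8.12, 7.03, 8.36 and 8.30 in PBS and 9.06, 9.09, 9.34 and 8.95 in SP. PBS sample 2 was more than 1 unit below the other PBS samples, and the groups lay 0.59 units apart. The difference was 1.16 (SE 0.28), or 2.23-fold, from 7.95 ± 0.63 (SD, n = 4) to 9.11 ± 0.16. Without PBS sample 2 the PBS mean was 8.26 ± 0.13 and the difference was 0.85, still called but below 2-fold.

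Ptgir (NM_008967) read 6.41, 6.19, 7.18 and 6.97 in PBS and 8.01, 7.61, 8.90 and 8.01 in SP. SP sample 3 was the highest of its group, and the groups lay 0.43 units apart. The means were 6.69 ± 0.47 (SD, n = 4) and 8.13 ± 0.54, a difference of 1.44 (SE 0.31), or 2.72-fold. Without SP sample 3 the difference was 1.19. When limma asked for differences above 1 unit (treat), Gpr31b and Ptger2 were called and Ptger4 and Ptgir were not.

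The 250 bases before the annotated starts of these receptors, which moved in the same direction, are shown for comparison, each 5′ to 3′ on its gene's strand in GRCm38.p6. Ptger2 is at chr14:44987861-44988110 (plus strand), Ptger4 at chr15:5244188-5244437 (minus strand) and Ptgir at chr7:16906240-16906489 (plus strand). Capitals mark letters that matched a searched motif.
Ptger2: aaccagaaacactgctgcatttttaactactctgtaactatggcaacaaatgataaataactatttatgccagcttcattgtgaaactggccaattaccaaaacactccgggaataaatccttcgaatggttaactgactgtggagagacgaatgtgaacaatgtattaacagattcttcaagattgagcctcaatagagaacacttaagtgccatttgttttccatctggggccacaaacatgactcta
Ptger4: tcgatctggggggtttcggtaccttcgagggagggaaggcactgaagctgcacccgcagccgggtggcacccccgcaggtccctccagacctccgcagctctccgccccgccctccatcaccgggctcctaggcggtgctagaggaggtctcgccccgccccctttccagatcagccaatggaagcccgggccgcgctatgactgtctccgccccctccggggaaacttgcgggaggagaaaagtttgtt
Ptgir: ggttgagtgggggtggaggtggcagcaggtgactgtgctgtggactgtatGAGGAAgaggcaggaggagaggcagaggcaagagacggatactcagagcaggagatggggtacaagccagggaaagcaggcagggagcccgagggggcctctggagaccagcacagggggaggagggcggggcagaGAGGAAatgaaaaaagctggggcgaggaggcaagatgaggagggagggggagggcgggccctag
They differ in base composition, with 38% G and C before Ptger2, 66.8% before Ptger4 and 63.6% before Ptgir. The 7 motifs searched on both strands, over these bases and the first 50 bases of the transcript, were those for NF-κB, PU.1, the interferon and STAT elements named above, TGACGTCA (the cyclic AMP response element, in 1.79% of all windows), TGANTCA (AP-1, in 7.81%) and TTGCNNAA (C/EBP, in 10.8%). GAGGAA stands at positions -200 and -64 of Ptgir, in capitals, and within 300 bases Ptger2 held a C/EBP match at position 39 after the start. Ptger4 held none of the 7. Ltb4r1, which was not called, held GAGGAA on the other strand at positions -129 and 2. No motif was found in the windows of all 4 receptors that were higher in SP.

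Ptger1, Ptger3 and Tbxa2r had low values, and in SP none of them passed the background margin. Ptger1 (NM_013641) read 5.47, 5.53, 5.60 and 5.84 in PBS and 4.997, 5.04, 5.05 and 5.11 in SP. All SP samples were below all PBS samples, but SP values were only 0.10 to 0.40 units above the highest Y-linked row. Most PBS values were also within the margin, so the size of the fold is uncertain. The difference was -0.56 (SE 0.09), or 1.47-fold lower, from 5.61 ± 0.16 (SD, n = 4) to 5.05 ± 0.05.

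Tbxa2r (NM_001277265), the thromboxane receptor of platelets and smooth muscle, read 6.35, 6.11, 5.89 and 5.79 in PBS. In SP it read 5.60, 5.37, 5.53 and 5.43. The groups lay 0.19 units apart. The SP values were 0.62 to 0.73 units above the highest Y-linked row, below the margin set for background, so the size of the Tbxa2r fold is uncertain too. The means were 6.04 ± 0.25 (SD, n = 4) and 5.48 ± 0.10, a difference of -0.55 (SE 0.13), or 1.47-fold lower. Platelet markers averaged 6.61 to 7.06 in PBS and 5.99 to 6.50 in SP, with 2 of 6 called lower. Smooth muscle markers averaged 7.44 to 8.30 in PBS and 6.71 to 8.25 in SP, with 0 of 5 called. The part of those cells, and of the epithelial and endothelial cells whose markers fell, in the lower values of Ptger1 and Tbxa2r was not tested. With each array centred on its median, which raised every SP difference by 0.28, neither receptor was called and 5 receptors were called higher and 0 lower.

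Ptger3 (NM_011196) read 5.06 to 5.39 in PBS and 5.05 to 5.20 in SP, all within the background margin. Its groups overlapped, with means of 5.19 ± 0.14 (SD, n = 4) and 5.11 ± 0.07 and a difference of -0.07 (SE 0.09). Centring the arrays turned that difference to 0.21, so no direction can be given.

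**Figure D2:**
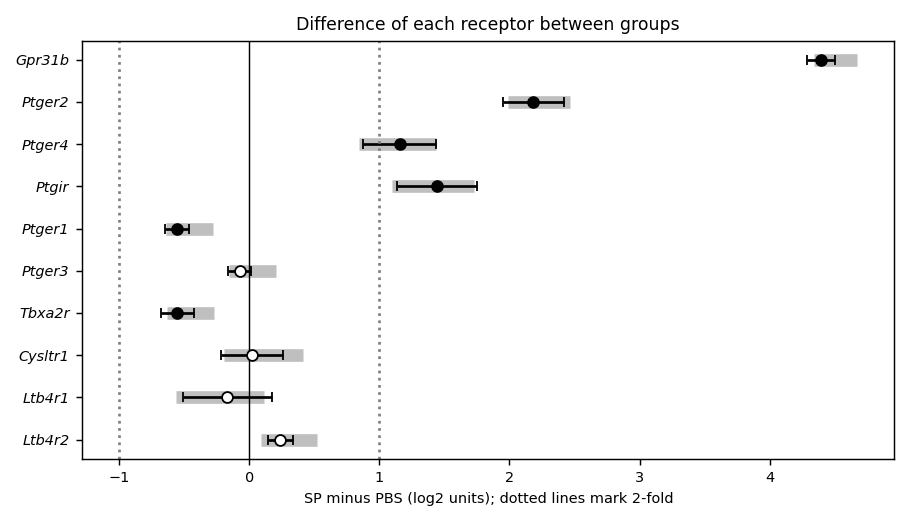
SP minus PBS difference in log2 intensity of the 10 receptors (points, with SE from limma, filled where called), with grey bars for the range over the main setting and 17 alternatives and dotted lines at 2-fold. Gpr31b stands at 4.39, the receptors raising cyclic AMP lie between 1.16 and 2.18, and the grey bars of Cysltr1, Ltb4r1 and Ptger3 cross 0.

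The leukotriene receptors were not called. Ltb4r1 (NM_008519), the chemoattractant receptor, read 7.98, 7.57, 9.13 and 8.95 in PBS and 7.99, 8.12, 8.57 and 8.28 in SP. The SP samples lay inside the range of the PBS samples. Means were 8.41 ± 0.75 (SD, n = 4) and 8.24 ± 0.25, and the difference was -0.17 (SE 0.34). It was 0.11 with centred arrays, 0.08 with another quantile normalization, and 0.07 or 0.01 without PBS sample 3 or 4, so its sign depended on the setting.

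Cysltr1 (NM_001281859), which binds leukotriene D4 and is known from smooth muscle and several leukocytes, read 6.86, 6.36, 6.40 and 6.59 in PBS. In SP it read 6.65, 6.30, 6.11 and 7.24, the widest spread of the SP groups after Ptgir. The means were 6.55 ± 0.23 (SD, n = 4) and 6.57 ± 0.49 and the difference was 0.02 (SE 0.24). The SP samples ran in the order of the monocyte and macrophage markers, whose means were 9.74, 9.62, 8.63 and 9.93 in SP samples 1 to 4, with sample 3 the lowest and sample 4 the highest of both. Those markers were 9.10, 8.31, 8.91 and 8.78 in PBS, and 3 of 6 were called higher in SP. Epithelial markers had the same SP order, with means of 10.63, 10.38, 10.19 and 10.97 in SP samples 1 to 4. Smooth muscle, endothelial and fibroblast markers also had sample 3 lowest and sample 4 highest. The part of any of these cells in the Cysltr1 values was not tested.

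Ltb4r2 (NM_020490), the low-affinity leukotriene B4 receptor, read 4.56 to 4.68 in PBS and 4.68 to 5.09 in SP. These values were -0.10 to 0.14 and -0.05 to 0.18 units from the highest Y-linked row, so it was not measured above background in either group. The difference was 0.24 (SE 0.10), from 4.62 ± 0.05 (SD, n = 4) to 4.86 ± 0.17. It was called higher in 4 of 16 other settings, and it reached 0.52 with centred arrays. The Y-linked rows were themselves higher in SP by 0.12 to 0.19 units.

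Some receptors ordered the samples of a group alike, which is given as a description without a test. PBS sample 2 was the lowest of its group for 6 of the 10 receptors, against 36.3% of all rows. The order 2, 1, 4, 3 from lowest to highest in PBS was shared by Ptger2, Ptger4, Ptgir and Ltb4r1, and by 14.8% of all rows. The same order was seen in 6 of 9 neutrophil markers (S100a8, Csf3r, Cxcr2, Mmp9, Il1r2 and Lcn2) and in 0 of 7 epithelial markers. The monocyte and macrophage markers Csf1r and Adgre1 also showed it, while Ccr2, C1qa, C1qb and Ms4a7 did not. SP sample 3 was the highest of its group for Ptger2, Ptger4, Ptgir, Ltb4r1 and Ltb4r2, for 8 of 9 neutrophil markers and for 41.1% of all rows. Neutrophil markers averaged 12.42, 12.17, 12.58 and 12.43 in PBS samples 1 to 4, and 12.25, 12.08, 12.82 and 12.25 in SP samples 1 to 4. The mean of SP sample 3 was raised by Camp, which read 10.94 there against 7.60 to 8.17 in the other SP samples. The part of cell composition in these orders was not tested, and Gpr31b did not show the PBS order.

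**Figure D3:**
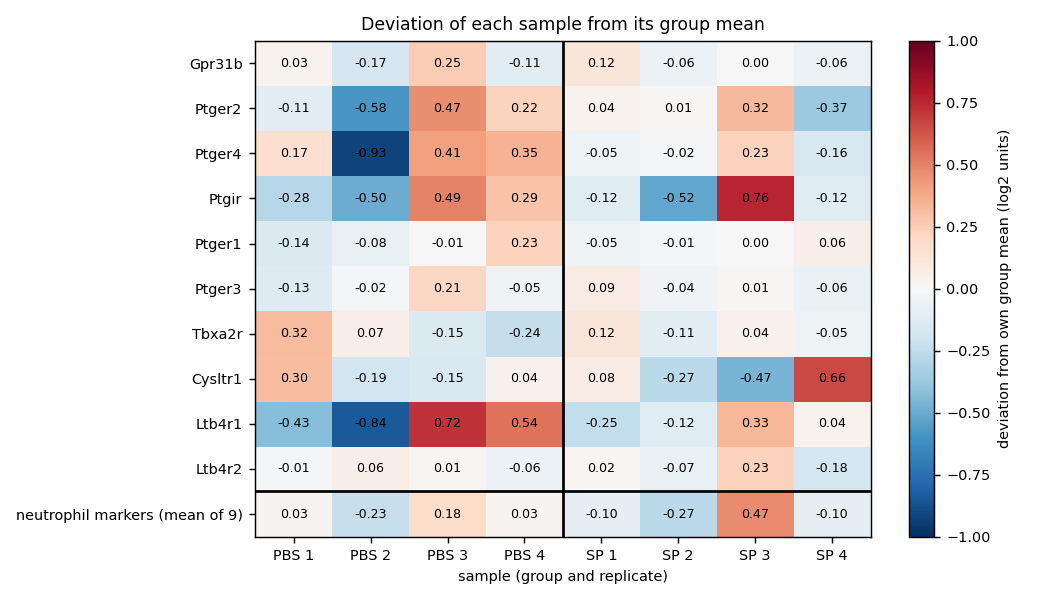
Deviation of each sample from its own group mean (log2 units, colour) for the 10 receptors and for the mean of 9 neutrophil markers, with samples in columns. PBS sample 2 is low and SP sample 3 is high for Ptger2, Ptger4, Ptgir and Ltb4r1 as well as for the neutrophil mean. Camp, at 10.94 in SP sample 3 and 7.60 to 8.17 in the other SP samples, raised that mean.

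The enzymes that make the ligands, the proteins that clear them, related receptors and signalling partners formed 5 further lists of 70 genes, of which 69 had a row. Of the 69, 40 were called by limma (58.0%), 19 higher and 21 lower in SP, and 23 were called at 2-fold, 11 higher and 12 lower. Over all rows 44.1% were called, 21.5% higher and 22.6% lower, and the counts of single lists below are to be read beside these shares. The median difference was -0.12. The split moved with the scaling, from 29 higher and 15 lower with arrays centred on their median to 14 higher and 25 lower with another quantile normalization, under which the median difference of all rows was 0.38 and 0.016. These lists were also written with results of the comparison known. Adjusted p-values below are those of limma over all rows.

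**Figure D4:**
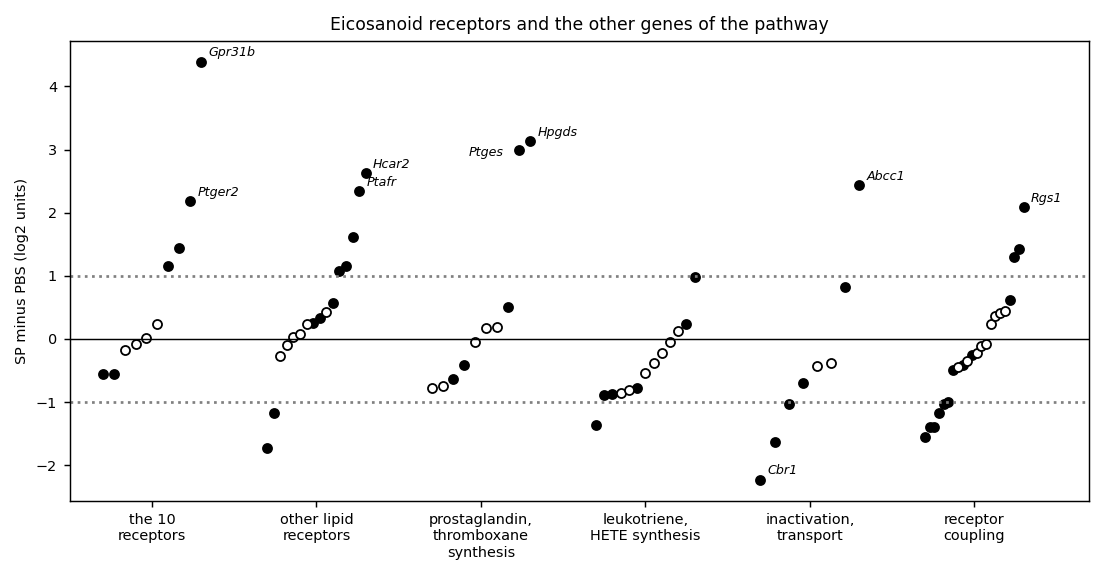
SP minus PBS difference in log2 intensity of each gene in the 5 pathway lists and the 10 receptors (dots, filled where called by limma, dotted lines at 2-fold), with names where the difference is at least 2 units in size. Each list holds genes on both sides of 0, from Gpr31b at 4.39 to Cbr1 at -2.23.

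Other receptors of lipid mediators were called in 10 of 16 cases, 8 higher and 2 lower. Among the 8, Ptgdr2 and Oxgr1, named after their values were seen, differed by only 0.26 and 0.34. Both were within the background margin in both groups, where the Y-linked rows were higher by 0.12 to 0.19. Hcar2, a receptor of hydroxybutyrate and niacin whose stimulation releases prostaglandins in skin, rose from 10.80 ± 1.42 (SD, n = 4) to 13.43 ± 0.15, or 6.17-fold (adjusted p = 0.00924, limma). PBS sample 2 was its lowest value, and without it the difference fell from 2.62 to 1.95 log2 units, still called. Ptafr, the receptor of platelet-activating factor, rose from 10.52 ± 0.94 to 12.85 ± 0.11, or 5.06-fold (adjusted p = 0.00219, limma). PBS sample 2 was its lowest value too (9.27), and without it the difference fell from 2.34 to 1.92, still called. Gpr132, a receptor of oxidised fatty acids, rose 3.05-fold (adjusted p = 0.036, limma), a call that was lost in 9 of 17 other settings. Its lowest value was also in PBS sample 2 (6.93), without which the difference fell from 1.61 to 1.07. Lgr6, a receptor described for maresin 1, and S1pr4, a sphingosine-1-phosphate receptor of blood cells, were 3.31-fold and 2.26-fold lower (adjusted p = 0.00425 and 0.0102, limma). Lgr6 in SP was only 0.13 to 0.35 units above the highest Y-linked row, so its fold can be no more than a lower bound. The part of epithelial and endothelial cells in the lower values of Lgr6 was not tested. Cysltr2, the other cysteinyl leukotriene receptor, differed by 0.42 (adjusted p = 0.0755, limma), with a call in 4 of 16 other settings, and S1pr1 by -0.10 (adjusted p = 0.772, limma). With centred arrays 12 of this list were called higher and 2 lower, and with quantile normalization 6 and 3.

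The enzymes of prostaglandin and thromboxane synthesis were called in 5 of 10 cases, 3 higher and 2 lower. Ptges, the inducible synthase of prostaglandin E2, the ligand of Ptger2 and Ptger4, rose from 7.68 ± 0.34 (SD, n = 4) to 10.67 ± 0.22, or 7.92-fold (adjusted p = 1.29e-05, limma). Hpgds, the haematopoietic synthase of prostaglandin D2, rose from 5.96 ± 0.25 to 9.09 ± 0.45, or 8.78-fold (adjusted p = 2.56e-05, limma). The inducible cyclooxygenase gene Ptgs2 was far above background in both groups, at 12.29 ± 0.66 and 12.46 ± 0.05, and was not called (difference 0.17, adjusted p = 0.616, limma). Pla2g4a, the phospholipase that frees arachidonic acid, was not called either (difference -0.04, adjusted p = 0.648, limma). Without PBS sample 1 or PBS sample 3, 3 of the 10 enzymes were called, and with centred arrays 4 were called, all higher.

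Enzymes of the lipoxygenase branch were called in 6 of 13 cases, 4 lower and 2 higher, with Alox15 the only one past 2-fold. Alox15, the 12/15-lipoxygenase of mice, which forms 12-HETE, fell from 7.41 ± 0.55 (SD, n = 4) to 6.05 ± 0.42, or 2.57-fold lower (adjusted p = 0.00698, limma). In SP it stood 0.68 to 1.65 units above the highest Y-linked row, within the background margin on at least 1 array, so that its fold may be understated. Alox12, the platelet-type 12-lipoxygenase, was at 6.02 ± 0.74 and 5.16 ± 0.12, near background in SP, and was not called (difference -0.85, adjusted p = 0.0604, limma), although 5 of 16 other settings called it lower. In PBS it stood 0.81 to 2.55 units above the highest Y-linked row, so it was within the margin there too on at least 1 array. PBS sample 2 was its highest value (7.08), and without it the difference was -0.50 and was called. The other called genes are named after their values were seen. Alox5, the enzyme that starts leukotriene synthesis, differed by -0.89 (adjusted p = 0.0273, limma), a call lost in 9 of 17 other settings. Lta4h, which makes leukotriene B4, differed by -0.77 (adjusted p = 0.00892, limma), and Ltc4s, which makes leukotriene C4, by -0.87 (adjusted p = 0.0102, limma). Ltc4s in SP stood 0.72 to 0.88 units above the highest Y-linked row, within the background margin. It read 7.12 in PBS sample 1 against 6.24 to 6.26 in the other PBS samples. Without PBS sample 1 the Ltc4s difference was -0.65, still called. Dpep2, a peptidase that converts leukotriene D4 to E4, rose by 0.99 (adjusted p = 0.000421, limma). Alox12b was called higher by 0.24 at background level, where the Y-linked rows were higher by 0.12 to 0.19, and the call was lost in 8 of 16 other settings. Alox5ap, the partner protein of Alox5, was not called (difference -0.39, adjusted p = 0.0904, limma), although 4 of 17 other settings called it lower. The list had 3 higher and 3 lower calls with centred arrays, 1 and 6 with quantile normalization, and 4 calls without any one of PBS sample 1, PBS sample 4, SP sample 1 and SP sample 2.

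Proteins that inactivate or carry eicosanoids were called in 6 of 8 cases, 2 higher and 4 lower. Abcc1, an exporter of leukotriene C4, rose from 9.27 ± 0.20 (SD, n = 4) to 11.70 ± 0.32, or 5.39-fold (adjusted p = 2.42e-05, limma). Hpgd, which inactivates prostaglandins, was 3.09-fold lower, from 11.59 ± 0.37 to 9.96 ± 0.24 (adjusted p = 0.000342, limma). Slco2a1, the uptake carrier that brings prostaglandins to Hpgd, was 2.04-fold lower (adjusted p = 0.0128, limma), and the carbonyl reductase Cbr1 4.69-fold lower (adjusted p = 0.000259, limma). Cbr1 in SP stood 0.67 to 1.92 units above the highest Y-linked row, within the background margin on at least 1 array, so that its fold may be understated. Hpgd and Slco2a1 are also known from lung epithelium and endothelium, whose marker means fell as given above. The part of those cells in the lower values of Hpgd, Slco2a1 and Cbr1 was not tested.

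Of the genes that couple the receptors to the cell interior, 13 of 22 were called, 4 higher and 9 lower. Rgs1, a brake on G protein signalling, and Pde4d, which breaks down cyclic AMP, rose 4.24-fold and 2.68-fold (adjusted p = 0.00351 and 0.00174, limma). Rgs1 read 8.20 in PBS sample 2 against 9.69 to 10.03 in the other PBS samples. Without that sample the Rgs1 difference fell from 2.08 to 1.66, still called. Adcy9, which makes cyclic AMP, and Arrb1, an arrestin that switches receptors off, were 2.62-fold and 2.64-fold lower (adjusted p = 0.000397 and 3.94e-05, limma). Gna11, a G protein subunit that acts through calcium, was 2.92-fold lower (adjusted p = 0.00287, limma). In SP samples 1 to 4 Gna11 read 8.27, 8.43, 7.40 and 8.86, and endothelial markers averaged 9.19, 9.39, 8.46 and 9.71. Smooth muscle markers (7.19, 7.51, 6.71 and 8.25) and fibroblast markers (7.64, 7.86, 6.92 and 8.96) had the same SP order. In PBS samples 1 to 4 Gna11 read 9.82, 10.07, 9.54 and 9.72, and endothelial markers averaged 10.77, 11.21, 10.26 and 10.15, with a different sample lowest. The part of these cells, or of epithelial cells, in the lower values of Adcy9, Arrb1 and Gna11 was not tested. The inhibitory subunits Gnai2 and Gnai3 were not called (adjusted p = 0.433 and 0.104, limma), although Gnai2 was called lower in 1 and Gnai3 higher in 2 of 17 other settings. With centred arrays the list had 8 higher and 6 lower calls, and without PBS sample 1 it had 8 calls in all.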

How the data were processed

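Labelled cDNA from each of 8 samples was hybridised to an Affymetrix Mouse Gene 1.1 ST array. Per the study's methods, the authors background-corrected, quantile-normalized and median-polished the signals (RMA), and the deposited table holds log2 values. They are relative within an array, so a change in total RNA cannot be read from them. No batch or scan time was used here, and the microRNA arrays were not analysed.

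Groups and replicate numbers followed the sample titles. Row accessions were matched to symbols through RefSeq genes (GRCm38.p6), and 19915 of 24625 rows (80.9%) matched. SP and PBS were compared with limma (version 3.58.1, R 4.3.3), lmFit and eBayes on all rows and no covariate, in a two-sided test adjusted by Benjamini-Hochberg, with thresholds of 0.05 and 1 log2 unit. Per the study each sample came from 1 mouse. Receptors and gene lists were chosen with earlier results of these data known. Named genes were the receptors; of each pathway list at most 5 with the largest difference called at 2-fold and at most 3 not called; the 5 most like Gpr31b by each correlation; and at most 2 markers per list by level, the markers with a shared sample order being named besides. The script was tested on simulated data. Gpr31c had no matched row. Promoter windows came from RefSeq, which gave entries for 7 receptors. Alternatives were the methods' t-test, a robust prior with trend, a replicate block, array weights, 2 scalings, a filter on dim rows, 1 row per symbol, treat, and leaving out each sample. Python 3.11.15 drew the figures.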

Additional observations from a re-analysis of the deposited data

How the results depend on the processing

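The main changes with the setting follow. Calls of single genes that were lost or gained in settings other than treat are given beside their values above or here, except for Ptgdr2, Oxgr1 and the markers. Ggt5 and Ptgr1, not called, were called lower in 2 of 17 settings each. With limma treat against 1 log2 unit, 2 receptors (Gpr31b and Ptger2) and 5 other pathway genes (Ptges, Hpgds, Abcc1, Cbr1 and Arrb1) were called, at either rule. All other receptors and pathway genes lost their call under treat or had none. With centred arrays the Gpr31b difference was 4.67. Leaving out each sample gave 6 to 7 called receptors and 3 to 4 at 2-fold (3 without PBS sample 2), and 28 to 40 other pathway genes, with 28 without PBS sample 1 and 18 to 22 at 2-fold. Leaving out rows below the median level dropped Ptger1, Ptger3, Tbxa2r and Ltb4r2 and left 4 called receptors. Array weights gave 7 called receptors, 3 of them at 2-fold, and the methods' t-test 6. Besides Cysltr1 (-0.20 to 0.41), Ltb4r1 (-0.56 to 0.11) and Ptger3 (-0.16 to 0.21), uncalled genes that changed sign were Gnai2 (0.20) and Pla2g4a (0.24) with centred arrays, Ptgs2 with quantile normalization (-0.043), array weights (-0.054) or without PBS sample 2 (-0.15, against up to 0.32 without PBS sample 4), and S1pr1 with array weights (0.11), centred arrays (0.18) or without PBS sample 2 (0.14, against down to -0.28 without PBS sample 3). The cause was not tested. Deviations of same-numbered samples correlated at 0.016, 0.030, 0.35 and -0.27, and those of differently numbered samples at -0.36 to 0.28. So few values cannot show whether the replicate numbers paired the samples. With a replicate block 6 receptors were called, 4 at 2-fold, with Gpr31b at 4.39, and 36 other pathway genes, 22 at 2-fold. Signal over background limits Ptger1, Ptger3 and Ltb4r2, and Tbxa2r in SP.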
